A study of Homo sapiens with 8 samples.

Results

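Interferon-stimulated genes were examined in 2 cervical cancer cell lines after knockdown of IGF2R, the receptor that carries insulin-like growth factor 2 and mannose 6-phosphate-tagged enzymes to the endosome and lysosome. The set holds 40 genes chosen by name as classical targets of interferon. The choice was made with earlier results of these data known, so counts of members beside all genes are a description. A gene counted as measured when the annotation gave it a probe set of its own that reached 500 signal units on any of the 8 arrays. Among several such probe sets the brightest on average stood for the gene. By this rule 32 of the 40 genes were measured, among 8961 genes measured in all, and 7 stayed under 500 on every array. The remaining 1 had no probe set of its own in the annotation used. Its signal was not analysed here, while its promoter is among those searched below. The groups were SKG-I cells transfected with siIGF2R, SKG-I cells transfected with siCtrl, BOKU cells transfected with siIGF2R and BOKU cells transfected with siCtrl, all collected 72 h after transfection with no interferon or other agent named in the labels. Each group was 1 RNA sample run on duplicate arrays, so the spread between duplicates is technical, no test is possible within a line, and the 2 lines were the replicates for the single test made. With so few RNA samples the precision is low.

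Interferons bind receptors that activate kinases such as JAK1, which phosphorylate STAT proteins. After type I or type III interferon, phosphorylated STAT proteins join IRF9 to form the complex ISGF3, which binds the interferon-stimulated response element (ISRE) in the promoters of these genes, and after interferon gamma a STAT dimer binds the gamma-activated sequence (GAS). The products bind or cut viral RNA, sense foreign nucleic acid, attach the ubiquitin-like protein ISG15 to other proteins, or hold virions at the membrane, and many cancer cells keep part of this programme on without infection.

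The promoters are shown because they are what the members share outside the arrays. RefSeq (GRCh38.p14) gave the sequence from 250 bases before to 50 bases after the start of 33 of the 40 genes (no entry was used for IRF7, IFIT2, OAS2, OASL, USP18, MX2 and TRIM22), and each was searched for the ISRE core GAAANNGAAA on both strands (TTTCNNTTTC on the other) and for the GAS letters TTCNNNGAA, which read the same on both strands. The ISRE core was found in 22 of 33 members (66.7%), against 4.38% of 27305 genes with a promoter in the same table and 3.57% of 35116 promoters. The GAS letters were found in 10 of 33 members (30.3%), against 9.38% of genes and 7.66% of promoters. The matches of both motifs shared bases in 3 members, BST2, IFI27 and MX1. A match is a description of the letters and not a site in use in these cells. Stretches of 6 members with large signal differences in SKG-I cells and of EIF2AK2 follow, each 5′ to 3′ on the strand of the gene, with ISRE matches in capitals.
GBP1, chr1:89065296-89065355, minus strand: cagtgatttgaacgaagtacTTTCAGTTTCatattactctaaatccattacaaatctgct
IFI27, chr14:94110608-94110670, plus strand: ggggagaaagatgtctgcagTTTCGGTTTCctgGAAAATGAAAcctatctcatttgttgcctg
IFI44L, chr1:78620264-78620404, plus strand: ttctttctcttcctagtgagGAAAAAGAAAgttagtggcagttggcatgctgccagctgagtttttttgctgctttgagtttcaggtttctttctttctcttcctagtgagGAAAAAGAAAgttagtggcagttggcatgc
ISG15, chr1:1013364-1013423, plus strand: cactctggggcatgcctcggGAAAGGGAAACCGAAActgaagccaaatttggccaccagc
IFI6, chr1:27672256-27672368, minus strand: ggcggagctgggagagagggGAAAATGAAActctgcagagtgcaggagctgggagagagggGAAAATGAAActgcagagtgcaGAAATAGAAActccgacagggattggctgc
IFIT1, chr10:89392487-89392549, plus strand: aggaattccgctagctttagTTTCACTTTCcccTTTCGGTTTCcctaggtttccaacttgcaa
EIF2AK2, chr2:37156977-37157006, minus strand: gggaaggcggagtccaagggGAAAACGAAA
The stretch of IFI44L held 2 matches in a repeated segment and that of IFI6 held 3, while GBP1 and EIF2AK2 had 1 each. In ISG15 the capitals run on because overlapping matches share the middle letters.

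**Figure D1:**
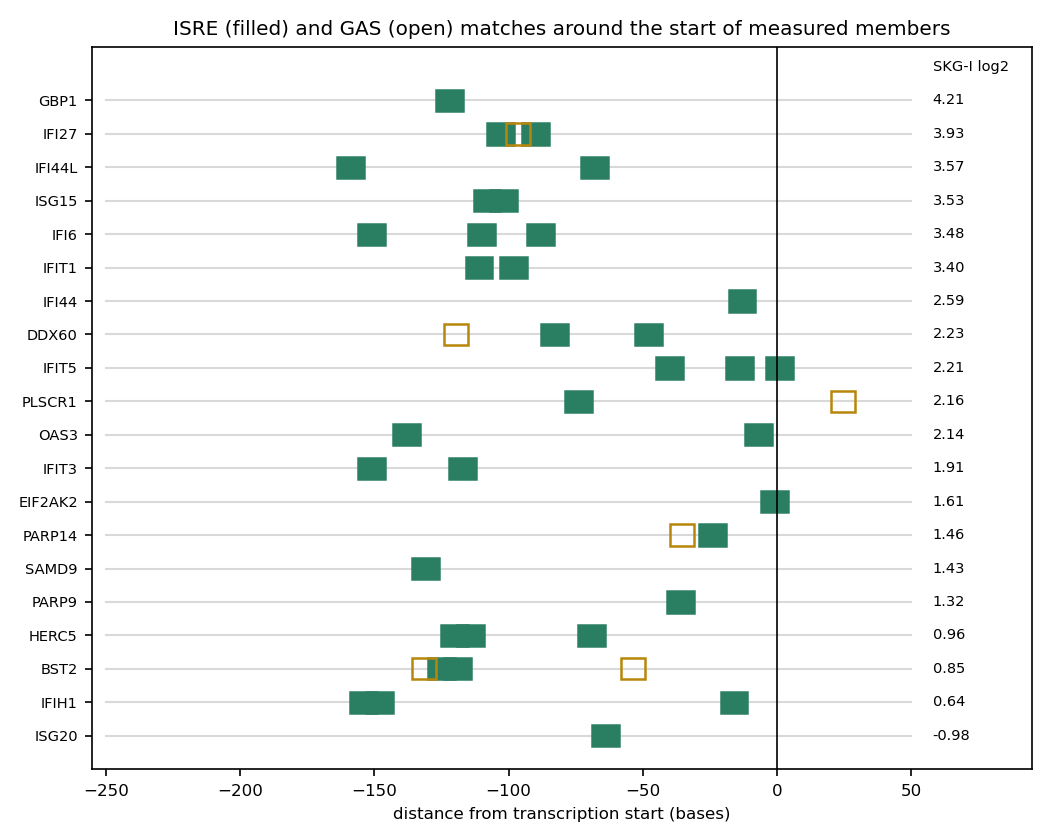
Position of ISRE core matches (filled) and GAS matches (open) relative to the transcription start, in bases, in the 20 measured members with an ISRE match, ordered by their siIGF2R minus siCtrl difference in SKG-I cells (log2 signal, right). For a gene with several promoters in the table, the first with a match is drawn. Most matches lie before the start, and the 10 members with the largest differences in SKG-I cells all have one.

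The arrays were alike in overall signal: the median signal over all probe sets was 65.0 to 74.6, and the difference between duplicates had an SD of 0.27 to 0.35 on the log2 scale. Among the measured members the median gap between duplicates was 0.056 to 0.140 (log2). IGF2R itself had signals of 257 and 295 in SKG-I cells with siIGF2R, against 4119.6 and 3838 in SKG-I cells with siCtrl and of 641 and 645 in BOKU cells with siIGF2R, against 7288 and 6710.5 in BOKU cells with siCtrl. The differences were −3.85 in SKG-I and −3.44 in BOKU cells on the log2 scale (limma over both lines, −3.65, SE 0.21, adjusted p = 0.022), so IGF2R matched the labels in both lines. The epithelial keratins KRT8 and KRT18 were between 7282 and 15766 on every array, whereas EPCAM was 1247 to 1536 in SKG-I and 18 to 51 in BOKU cells. CDH1 was 4.03-fold higher with siIGF2R in SKG-I cells and at 3 or less in BOKU cells, KRT19 was 3.65-fold lower in SKG-I cells, DSP was 5.95-fold higher in BOKU cells, and KRT5 was under 500 on every array (limma adjusted p 0.164 or more for CDH1, KRT19 and DSP). The leukocyte markers PTPRC, CD14, CD3E, ITGAM and LYZ were all at 78 or less, and the endothelial markers PECAM1, VWF and CDH5 under 500. Of the fibroblast markers, COL1A1 was 1187 to 5684 over all arrays and COL3A1 1379.8 to 2013 in SKG-I and 28 or less in BOKU cells, while COL1A2, PDGFRA and DCN were under 500. TCF4, on the plasmacytoid dendritic list, was 672 to 831 in SKG-I cells, with IL3RA and CLEC4C under 500. The part of these differences in the members' values was not tested.

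The main result was a difference between the lines. In SKG-I cells 23 of the 32 measured members were 2-fold or more higher with siIGF2R than with siCtrl, against 8.28% of all genes, and none was 2-fold or more lower, against 6.42%. In BOKU cells 3 members were 2-fold or more higher (EIF2AK2, USP18 and GBP1), against 8.02% of all genes, and 3 were 2-fold or more lower (IFIT1, IFIT2 and TRIM22), against 5.06%. Of any size, 30 members were higher with siIGF2R in SKG-I cells, against 48.1% of all genes, and 20 in BOKU cells, against 51.9%. The median difference of the members was 1.59 in SKG-I cells, with a range of −0.98 to 4.21, and 0.22 in BOKU cells, with a range of −1.61 to 1.98, while over all genes the medians were −0.03 in SKG-I and 0.03 in BOKU cells (log2, siIGF2R minus siCtrl). Of the 32 members, 7 passed the signal rule only through arrays with siIGF2R (IFIH1, OAS1, OAS3, OASL, USP18, ISG20 and IFI44L) and IFIT2 only through arrays with siCtrl, so these 8 had to differ to some degree to be counted. Of them, OAS1, OAS3, OASL, USP18 and IFI44L are among the 23 and add no support to that count. The members nearest the limit inside it peaked at 539.6 (OASL), 591 (PARP14) and 597 (IFIH1), and those nearest outside at 499 (IRF1), 331 (MX1) and 284 (CMPK2). In RNA of whole cultures, more cells with a high level and more RNA per cell cannot be told apart.

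**Figure D2:**
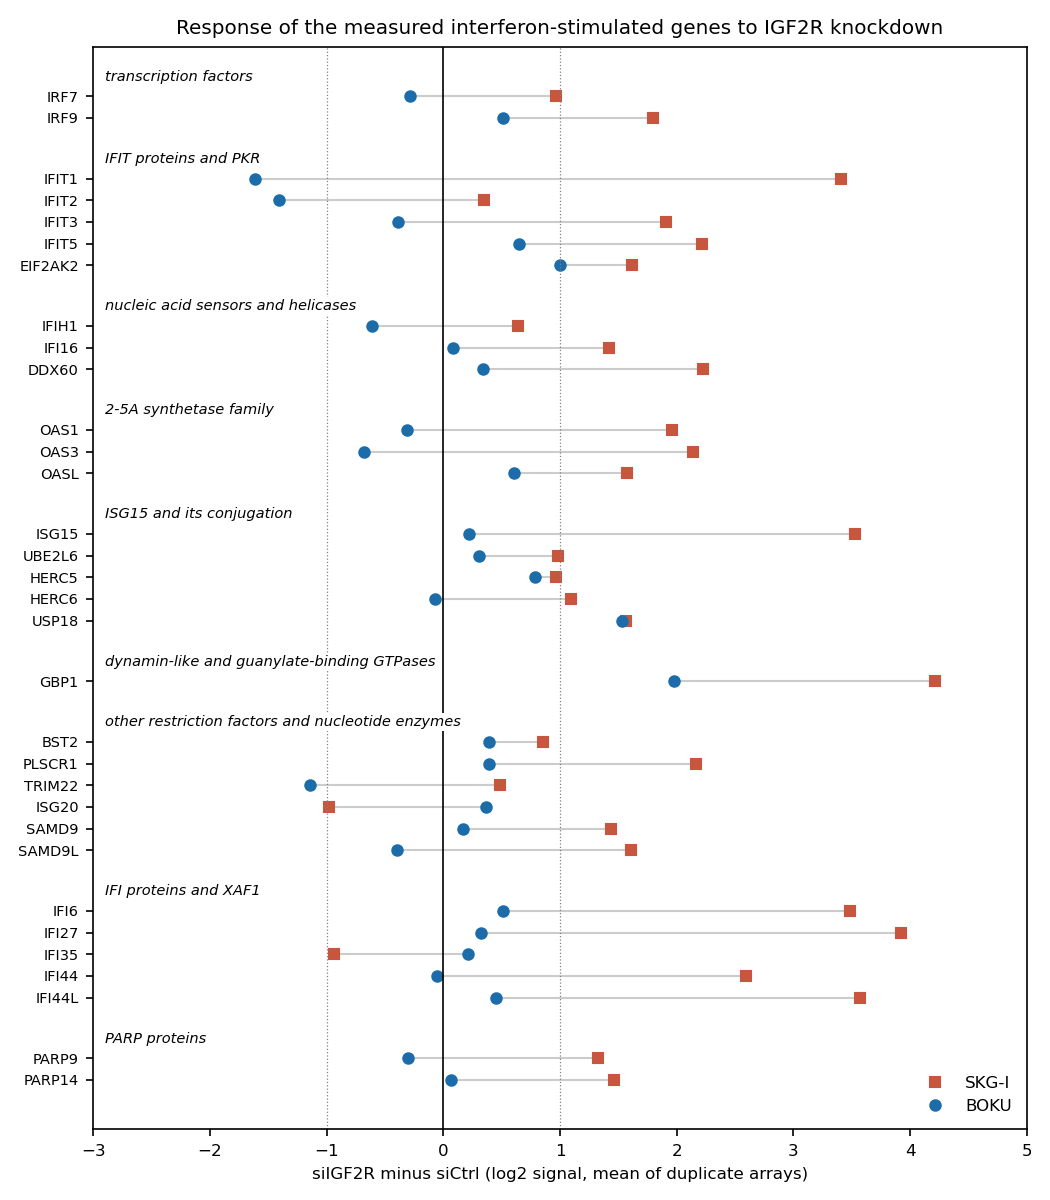
Difference in log2 signal, siIGF2R minus siCtrl (mean of duplicate arrays), of the 32 measured members in SKG-I cells (squares) and BOKU cells (circles), grouped by role, with dotted lines at 2-fold. In SKG-I cells 23 members lie beyond the upper line and none beyond the lower, whereas in BOKU cells 3 lie beyond each.

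Over both lines, the limma test with the line as a block called 2 members higher with siIGF2R, against 2.63% of all genes, and 0 lower, against 2.37%. At an unadjusted p under 0.05 it gave 15 higher, against 14.4% of all genes, and 0 lower, against 14.0%. Of the 15, OASL and IFI44L passed the signal rule only through siIGF2R arrays and add no support to that count. The members called were GBP1 and EIF2AK2. These and USP18 were 2-fold or more higher in each line (3 of 32, against 3.18% of all genes), of which USP18 rests on BOKU signals near or under the array median, and no member was 2-fold or more lower in each line (2.34% of all genes). With 4 RNA samples the fit had 1 residual degree of freedom, and members with unlike differences in the lines had wide errors in it.

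GBP1, a guanylate-binding GTPase that coats pathogen-containing vacuoles and bacteria in the cytosol, had signals of 6191 and 5889 in SKG-I cells with siIGF2R, against 313 and 339 in SKG-I cells with siCtrl. It had 4870.4 and 3583 in BOKU cells with siIGF2R, against 1095 and 1030.1 in BOKU cells with siCtrl. All arrays with siIGF2R were above those with siCtrl in each line, and the siCtrl signal was the lower one in SKG-I cells. The difference was 18.5-fold in SKG-I and 3.93-fold in BOKU cells (limma log2 3.09, SE 0.50, adjusted p = 0.038). The other 2 probe sets of GBP1 that passed the signal rule were apart in the same direction in both lines. The other GTPases of the set, MX1 and MX2, which block early steps of viral replication, were under 500 on every array. MX1 nonetheless had signals of 312 and 331 in SKG-I cells with siIGF2R, against 47.4 and 64.8 in SKG-I cells with siCtrl, and 59.3 or less in BOKU cells.

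EIF2AK2 encodes PKR, the kinase that halts translation when it binds double-stranded RNA. Its signals were 6317 and 6636 in SKG-I cells with siIGF2R, against 2143 and 2088 in SKG-I cells with siCtrl. They were 2279.9 and 2079 in BOKU cells with siIGF2R, against 1182 and 998 in BOKU cells with siCtrl. For this probe set the groups did not overlap in either line, and the signal with siIGF2R was 3.06-fold higher in SKG-I and 2.0-fold higher in BOKU cells (limma log2 1.31, SE 0.22, adjusted p = 0.041). Its other probe set above 500 overlapped in BOKU cells, with 1592 and 1873 with siIGF2R against 1632 and 1172 with siCtrl, and was 0.83 higher in SKG-I and 0.32 higher in BOKU cells on the log2 scale (limma adjusted p = 0.164). Without the second BOKU siCtrl array the adjusted p of EIF2AK2 was 0.057, and without the first BOKU siIGF2R array that of GBP1 was 0.051. Neither passed without a variance trend (adjusted p = 0.119 for EIF2AK2 and 0.122 for GBP1) or when the probe sets of a gene were averaged (0.078 and 0.056 in limma).

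The IFIT genes, whose proteins bind viral RNA with foreign ends, included IFIT1, the member with the widest gap between the lines' differences. IFIT1 had signals of 5365 and 5462 in SKG-I cells with siIGF2R, against 447 and 585 in SKG-I cells with siCtrl. It had 361 and 303 in BOKU cells with siIGF2R, against 1049 and 973 in BOKU cells with siCtrl. Knockdown arrays were thus well above control arrays in SKG-I cells and well below them in BOKU cells, with a 10.6-fold higher signal in SKG-I and a 3.05-fold lower signal in BOKU (limma adjusted p = 0.620 over both lines). IFIT1 was the single one of the 32 measured members apart by 2-fold or more in opposite directions. The share of all genes apart in this way was not counted.

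IFIT2, which binds RNA as a partner of the other IFIT proteins, had 364 and 395 in SKG-I cells with siIGF2R, against 253 and 350.3 in SKG-I cells with siCtrl. It had 366 and 407 in BOKU cells with siIGF2R, against 1068 and 979.6 in BOKU cells with siCtrl. The BOKU siCtrl arrays were the high ones, and the SKG-I groups lay close together without overlap. IFIT3, which stabilises IFIT1 on RNA, had 2072 and 1893 in SKG-I cells with siIGF2R, against 471 and 594 in SKG-I cells with siCtrl. It had 1839 and 1871 in BOKU cells with siIGF2R, against 2371 and 2479 in BOKU cells with siCtrl. Here the BOKU siCtrl arrays were again the highest, and SKG-I cells with siIGF2R lay close to BOKU cells with siIGF2R. IFIT5, which binds RNA with a triphosphate end, had 1050.5 and 1025 in SKG-I cells with siIGF2R, against 219 and 228 in SKG-I cells with siCtrl. It had 777 and 779.7 in BOKU cells with siIGF2R, against 572 and 432 in BOKU cells with siCtrl. It was higher with siIGF2R in each line, 4.64-fold in SKG-I and 1.56-fold in BOKU cells (limma adjusted p = 0.096). IFIT2 and IFIT3 are neighbours on chromosome 10, as are IFIT1 and IFIT5. The BOKU difference was −1.41 for IFIT2 beside −0.39 for IFIT3, and −1.61 for IFIT1 beside 0.65 for IFIT5 (log2), so the sizes differed within each pair.

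Of the transcription factors, IRF9, the DNA-binding part of ISGF3, had signals of 4369 and 4489 in SKG-I cells with siIGF2R, against 1351 and 1207 in SKG-I cells with siCtrl. It had 1156 and 1194 in BOKU cells with siIGF2R, against 826 and 818 in BOKU cells with siCtrl. Arrays with siIGF2R were above those with siCtrl in both lines, 3.47-fold in SKG-I and 1.43-fold in BOKU cells (limma adjusted p = 0.098). IRF7, which drives interferon alpha transcription, had 1579 and 1594 in SKG-I cells with siIGF2R, against 968 and 686 in SKG-I cells with siCtrl. It had 336 and 320.1 in BOKU cells with siIGF2R, against 379.6 and 419 in BOKU cells with siCtrl. It was 1.95-fold higher in SKG-I cells, just under 2-fold, and 1.22-fold lower in BOKU cells. IRF1, the factor best known downstream of interferon gamma, fell just short of the signal rule. Its signals were 268 and 227 in SKG-I cells with siIGF2R, against 203 and 147 in SKG-I cells with siCtrl, and 448 and 499 in BOKU cells with siIGF2R, against 372 and 326 in BOKU cells with siCtrl. In each line the IRF1 arrays with siIGF2R were the higher ones, all below 500.

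Among nucleic acid sensors, IFI16, which binds DNA, was high in BOKU cells under both siRNAs and differed with siIGF2R in SKG-I cells alone by 2-fold or more. Its signals were 2389.7 and 2473 in SKG-I cells with siIGF2R, against 887 and 931 in SKG-I cells with siCtrl, and 6205 and 5961 in BOKU cells with siIGF2R, against 6129 and 5385 in BOKU cells with siCtrl. DDX60, a helicase linked to RNA sensing, had 1391 and 1482 in SKG-I cells with siIGF2R, against 263 and 358 in SKG-I cells with siCtrl. It had 656 and 686 in BOKU cells with siIGF2R, against 506 and 557 in BOKU cells with siCtrl. The SKG-I groups were 4.68-fold apart and the BOKU groups 1.26-fold. IFIH1, which encodes the double-stranded RNA sensor MDA5, was 1.56-fold higher with siIGF2R in SKG-I and 1.53-fold lower in BOKU cells.

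The oligoadenylate synthetases make the small messenger that switches on an RNA-cutting enzyme when double-stranded RNA is present. OAS1 had signals of 1564 and 1550.3 in SKG-I cells with siIGF2R, against 362 and 445 in SKG-I cells with siCtrl. It had 66.3 and 41.4 in BOKU cells with siIGF2R, against 51.7 and 81.3 in BOKU cells with siCtrl. The SKG-I groups were 3.88-fold apart, while the BOKU arrays overlapped, near the array median signal. OAS3 had 1002 and 1081 in SKG-I cells with siIGF2R, against 235 and 237 in SKG-I cells with siCtrl. In BOKU cells OAS3 stayed between 55.1 and 99.7. OASL, a family member without synthetase activity in human cells, was 2.97-fold higher with siIGF2R in SKG-I and 1.52-fold higher in BOKU cells. OAS2 was under 500 on every array, at 115 and 78.7 in SKG-I cells with siIGF2R, against 23.2 and 20.6 in SKG-I cells with siCtrl, and at 58.1 and 64.9 in BOKU cells with siIGF2R, against 249 and 224 in BOKU cells with siCtrl. It was thus low throughout, with the BOKU siCtrl arrays the highest.

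ISG15, the ubiquitin-like modifier itself, had signals of 8517 and 8496 in SKG-I cells with siIGF2R, against 722 and 752 in SKG-I cells with siCtrl. It had 2569 and 2457 in BOKU cells with siIGF2R, against 2299 and 2018 in BOKU cells with siCtrl. The SKG-I groups were 11.5-fold apart and the BOKU groups 1.17-fold, with no overlap in either (limma adjusted p = 0.166). The enzymes that attach ISG15 were less far apart between siRNAs in SKG-I cells. UBE2L6, the conjugating enzyme, was 1.98-fold higher in SKG-I and 1.23-fold higher in BOKU cells. HERC5, the main ISG15 ligase in human cells, was 1.95-fold higher in SKG-I and 1.72-fold higher in BOKU cells, the member after GBP1 and EIF2AK2 with the lowest adjusted p (limma, 0.072). HERC6, which takes that role in mouse, was 2.14-fold higher in SKG-I and 1.05-fold lower in BOKU cells, where its arrays overlapped.

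USP18, which removes ISG15 and dampens signalling at the interferon receptor, was low in BOKU cells. It had signals of 1118 and 1099 in SKG-I cells with siIGF2R, against 454 and 310.0 in SKG-I cells with siCtrl. It had 13.4 and 70.4 in BOKU cells with siIGF2R, against 10.0 and 11.4 in BOKU cells with siCtrl. A single BOKU array, with siIGF2R, stood above the rest, and the duplicates of that sample were 2.39 apart on the log2 scale, the widest gap of any measured member. The BOKU difference of 1.53 (log2) ran from 0.34 to 2.72 when 1 array was left out and was 0 when signals under 100 were set to 100, so USP18 was 2-fold or more higher in SKG-I cells (2.96-fold) and had no settled difference in BOKU cells.

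The restriction factors were mixed. PLSCR1, a phospholipid scramblase that blocks viral entry, had 6662 and 6960.3 in SKG-I cells with siIGF2R, against 1511 and 1528 in SKG-I cells with siCtrl. It had 3189 and 3562 in BOKU cells with siIGF2R, against 2614 and 2531 in BOKU cells with siCtrl. It was 4.48-fold higher in SKG-I and 1.31-fold higher in BOKU cells. BST2, the tether that holds budding virions at the cell surface, was high in both lines and 1.81-fold higher with siIGF2R in SKG-I and 1.31-fold higher in BOKU cells. SAMD9 and SAMD9L, neighbouring genes for proteins that restrict poxviruses, were 2.70-fold and 3.05-fold higher in SKG-I cells. In BOKU cells SAMD9 was 1.13-fold higher and SAMD9L 1.32-fold lower.

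TRIM22, a ubiquitin ligase that limits transcription of several viruses, had the most negative BOKU difference of the measured members after IFIT1 and IFIT2. Its signals were 439 and 408 in SKG-I cells with siIGF2R, against 305 and 301 in SKG-I cells with siCtrl. They were 2563 and 2109 in BOKU cells with siIGF2R, against 5244 and 5012 in BOKU cells with siCtrl. BOKU cells lay far above SKG-I cells under both siRNAs, and with siIGF2R the signal was 1.40-fold higher in SKG-I and 2.20-fold lower in BOKU cells. ISG20, an exonuclease that degrades RNA, ran the other way, with 207 and 203 in SKG-I cells with siIGF2R, against 404 and 406 in SKG-I cells with siCtrl. It had 504 and 627 in BOKU cells with siIGF2R, against 389.6 and 487 in BOKU cells with siCtrl. It was 1.98-fold lower in SKG-I and 1.29-fold higher in BOKU cells. RSAD2 (viperin) and its neighbour CMPK2, whose enzymes make an altered nucleotide that stops viral polymerases, were under 500 on every array. CMPK2 reached 284 in SKG-I cells with siIGF2R, whereas RSAD2 was at 47 or less on every array.

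The 5 measured IFI genes had a median difference of 3.48 in SKG-I cells, against 0.32 in BOKU cells (log2), the highest SKG-I median among role groups with more than 1 measured member. IFI6, which protects cells from flavivirus replication at the endoplasmic reticulum, had 16255 and 15770.1 in SKG-I cells with siIGF2R, against 1312 and 1562 in SKG-I cells with siCtrl. It had 1981 and 1900.3 in BOKU cells with siIGF2R, against 1316 and 1399.9 in BOKU cells with siCtrl. Control cells of both lines were at the same level. SKG-I cells with siIGF2R stood 11.2-fold above them, and BOKU cells 1.43-fold. IFI44L and IFI44 lie next to each other on chromosome 1. IFI44L had 2784 and 2695 in SKG-I cells with siIGF2R, against 218 and 245 in SKG-I cells with siCtrl. It had 622 and 593 in BOKU cells with siIGF2R, against 420.5 and 467 in BOKU cells with siCtrl. No IFI44L group overlapped another. Its neighbour IFI44 had 2109 and 2096 in SKG-I cells with siIGF2R, against 361 and 336 in SKG-I cells with siCtrl. It had 720.0 and 726 in BOKU cells with siIGF2R, against 671 and 837 in BOKU cells with siCtrl. Both genes were highest in SKG-I cells with siIGF2R. IFI44L was 11.9-fold higher in SKG-I and 1.37-fold higher in BOKU cells. IFI44 was 6.04-fold higher in SKG-I and 1.04-fold lower in BOKU cells, where its groups overlapped.

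IFI27, an interferon-induced protein of mitochondria and inner membranes, showed the widest gap between control cells of the lines. It had 796 and 868 in SKG-I cells with siIGF2R, against 97.3 and 30.8 in SKG-I cells with siCtrl. It had 6579 and 7441 in BOKU cells with siIGF2R, against 5391 and 5827 in BOKU cells with siCtrl. The SKG-I control arrays were close to the array median signal and 1.66 apart on the log2 scale, so the 15.2-fold difference in SKG-I cells is uncertain in size, with log2 values of 3.10 to 4.75 when 1 array was left out against 3.93 with all. IFI35, a partner of the signalling protein NMI, was the other member lower with siIGF2R in SKG-I cells. It had 1051 and 1118 in SKG-I cells with siIGF2R, against 2051 and 2091 in SKG-I cells with siCtrl. It had 739 and 740.0 in BOKU cells with siIGF2R, against 661 and 619 in BOKU cells with siCtrl. It was 1.91-fold lower with siIGF2R in SKG-I and 1.16-fold higher in BOKU cells, and the groups did not overlap in either line. XAF1, which promotes cell death, was at 124 or less on every array.

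The ADP-ribosyltransferases PARP9 and PARP14, which act on STAT signalling in macrophages, were 2.50-fold and 2.75-fold higher with siIGF2R in SKG-I cells. In BOKU cells PARP9 was 1.23-fold lower and PARP14 1.04-fold higher.

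**Figure D3:**
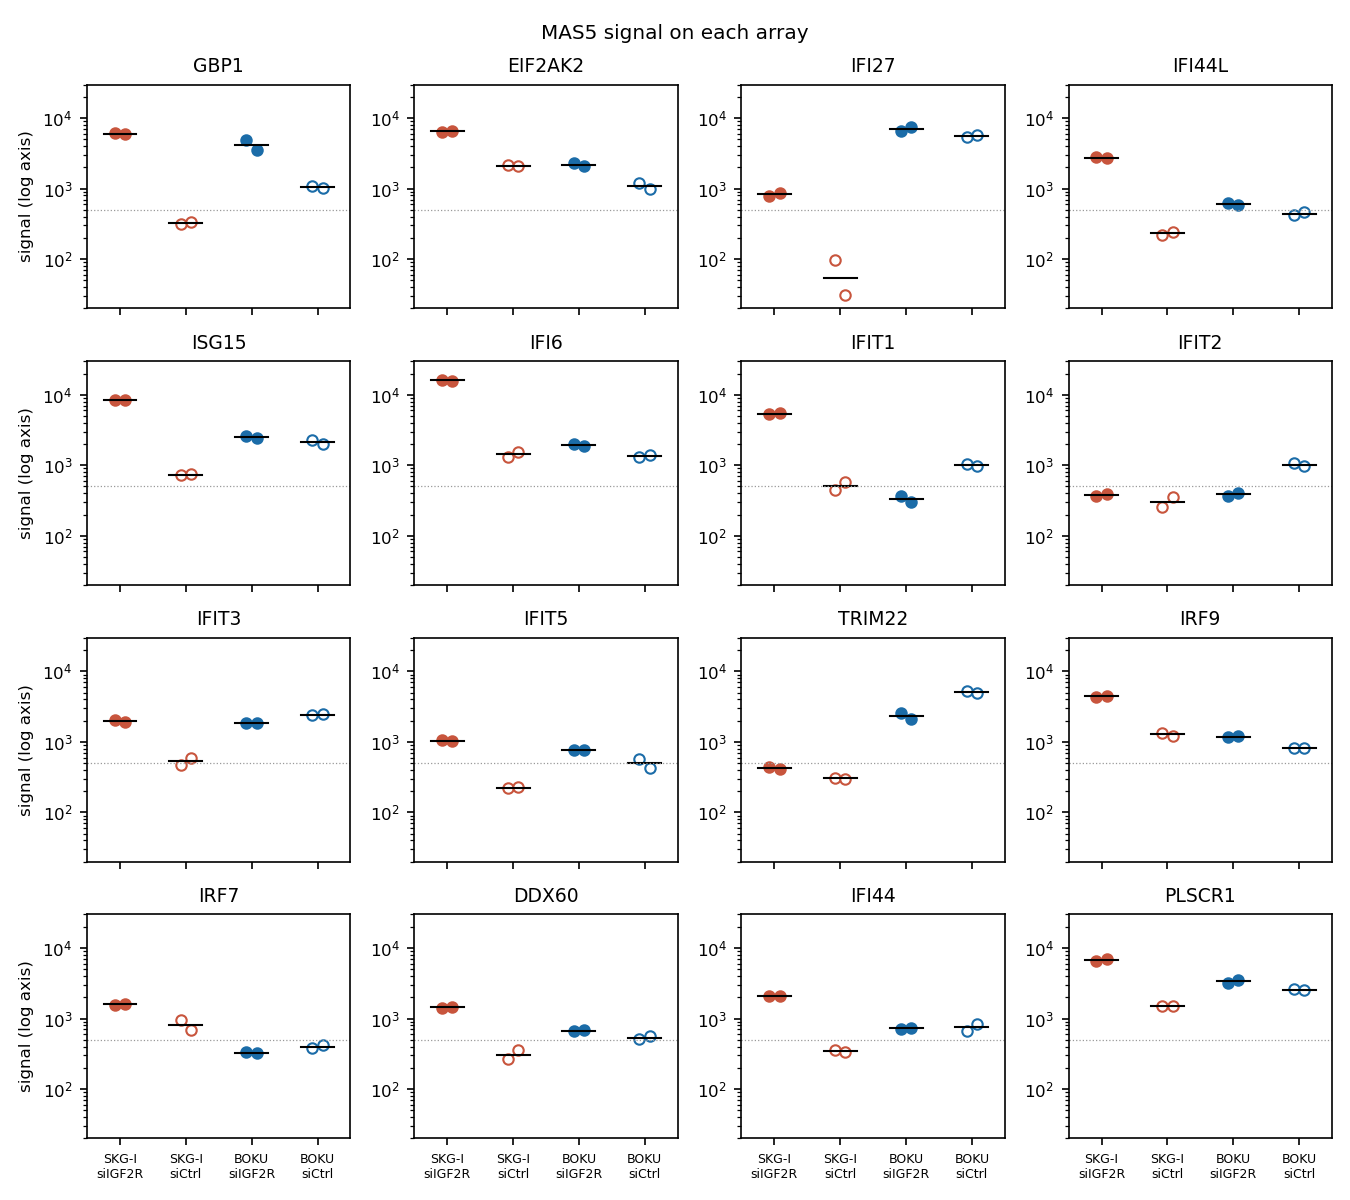
Deposited signal on each array (log axis) for 16 members in SKG-I and BOKU cells with siIGF2R (filled) and siCtrl (open), points for the duplicate arrays and bars for their geometric mean, with the 500 threshold dotted. Among the 16 members drawn, which leave out USP18, the widest gap between duplicates is that of IFI27 in SKG-I siCtrl cells. For IFIT1 the siIGF2R arrays are above siCtrl in SKG-I cells and below it in BOKU cells.

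The control cells themselves differed. With siCtrl, 12 of 32 members were 2-fold or more higher in BOKU than in SKG-I cells, against 15.7% of all genes, and 5 were 2-fold or more lower (IRF7, OAS1, OAS3, USP18 and IFI35), against 19.0%. The median difference was 0.77, against −0.08 over all genes (log2, BOKU minus SKG-I). The 12 included IFI27, whose ratio has no settled size because the SKG-I siCtrl signals were near the array median, and TRIM22 (16.9-fold), IFI16 (6.32-fold), IFIT3 (4.58-fold) and GBP1 (3.26-fold). With siIGF2R the order turned: 5 members were 2-fold or more higher in BOKU cells, against 14.0% of all genes, and 16 were 2-fold or more lower, against 14.7%, with a median of −0.87 against −0.03. Per array, the median signal of the measured members was 1465 and 1430 in SKG-I cells with siIGF2R, against 450.3 and 492 in SKG-I cells with siCtrl. It was 729 and 733 in BOKU cells with siIGF2R, against 777 and 834 in BOKU cells with siCtrl. SKG-I control cells were thus the lowest and SKG-I knockdown cells the highest of the groups. IFIH1, OAS1, OAS3, USP18 and IFI44L, among the 16, passed the signal rule only through siIGF2R arrays. So did ISG20, among the 5 higher in BOKU cells with siIGF2R, while IFIT2, among the 12, passed only through siCtrl arrays. These members add no support to the counts, and they are part of the medians too.

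For 13 members the BOKU signal was the higher one with siCtrl and the SKG-I signal the higher one with siIGF2R, against 6.54% of all genes: IFIT1, IFIT3, IFIT5, DDX60, OASL, ISG15, GBP1, PLSCR1, SAMD9, SAMD9L, IFI44, IFI44L and PARP9. Of the 13, OASL and IFI44L passed the signal rule only through siIGF2R arrays and add no support to the count. No member took the reverse course, against 9.03% of all genes. The members with the largest control signal ratios of BOKU over SKG-I cells, IFI27, TRIM22 and IFI16, remained higher in BOKU cells with siIGF2R too.

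**Figure D4:**
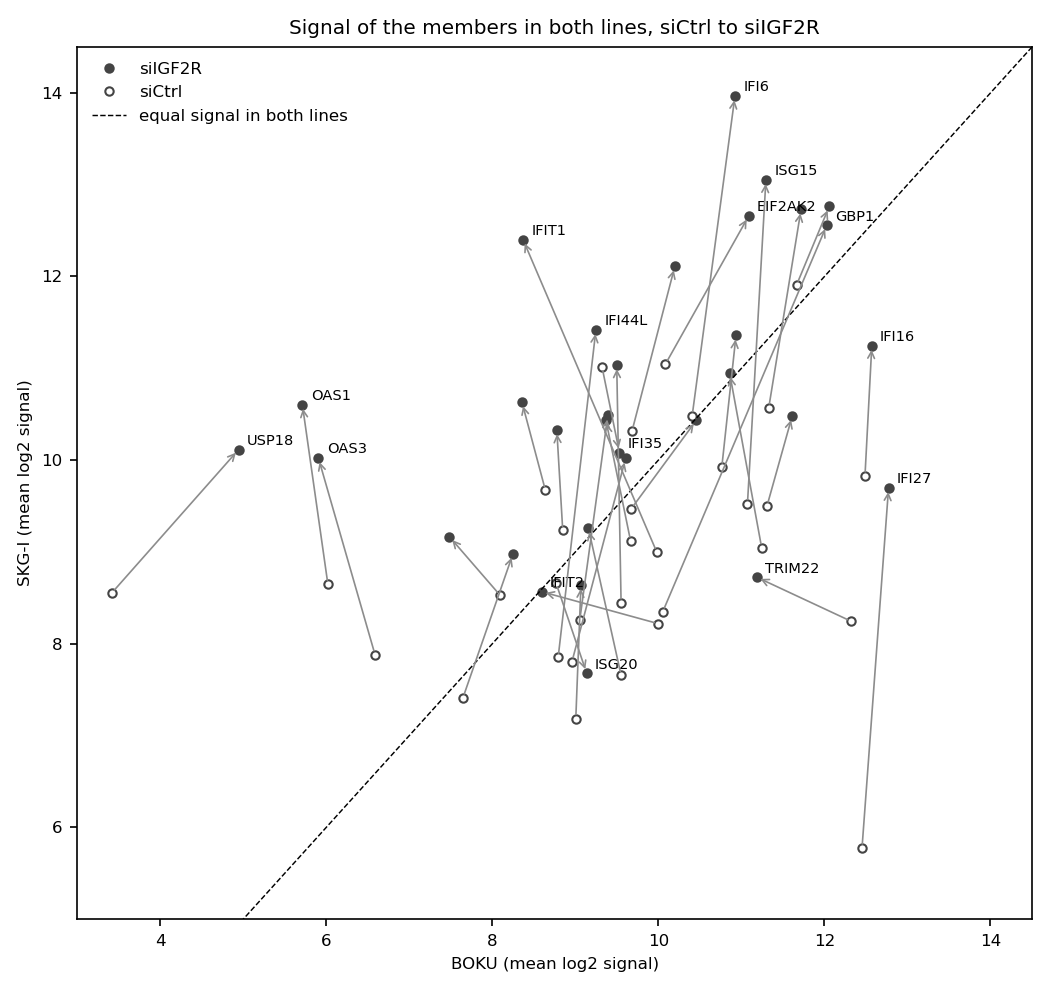
Mean log2 signal in BOKU cells (x axis) and SKG-I cells (y axis) of each measured member, with an arrow leading to siIGF2R (filled) and starting at siCtrl (open), and a dashed line of equal signal. Most arrows run upward, which is the SKG-I response, and 13 cross the dashed line out of the BOKU side, while 12 run left, IFIT1, IFIT2 and TRIM22 by 2-fold or more.

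The response, siIGF2R minus siCtrl, was 2-fold or more higher in SKG-I than in BOKU cells for 24 of 32 members, against 5.38% of all genes, and 2-fold or more lower for ISG20 and IFI35, against 6.17%. The median of this difference of differences was 1.6 over the members and −0.06 over all genes (log2). It had no residual degree of freedom and was not tested. Of the 24, IFIH1, OAS1, OAS3 and IFI44L passed the signal rule only through siIGF2R arrays and IFIT2 only through siCtrl arrays. ISG20 also passed only through siIGF2R arrays. Among the members the BOKU and SKG-I responses had a Spearman correlation of 0.26 (32 genes of the same arrays, as a description), and the SKG-I response had one of −0.24 with the SKG-I siCtrl signal that it is computed from.

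Members with and without an ISRE match were set side by side as a description. Of the 20 measured members with a match, 16 were 2-fold or more higher with siIGF2R in SKG-I cells, with a median of 2.15, and of the 7 without a match 5 were, with a median of 1.42 (log2). Those 7 promoters lack these exact letters in this window, which says nothing of binding. All of the 10 largest differences in SKG-I cells came from genes with a match, 6 of which have their stretch printed above (GBP1, IFI27, IFI44L, ISG15, IFI6 and IFIT1). ISG20, which was lower with siIGF2R in SKG-I cells, had a match too.

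The rest of the pathway was followed in a list of 56 genes that are no members. The list was chosen with earlier results of these data known, so its counts are a description and no independent support. Of the 56 genes, 33 were measured. The limma test over both lines called 5 of these higher with siIGF2R, against 2.63% of all genes, and 0 lower, and in SKG-I cells 12 were 2-fold or more higher, against 8.28% of all genes, and in BOKU cells 8, against 8.02%. None was 2-fold or more lower, against 6.42% of all genes in SKG-I and 5.06% in BOKU cells. The median differences were 0.51 in SKG-I and 0.31 in BOKU cells, against −0.03 in SKG-I and 0.03 in BOKU cells over all genes (log2). SOCS3 and NLRC5, counted as 2-fold higher in both lines, and CGAS, counted in BOKU cells, reached 500 only on siIGF2R arrays. They add no support to those counts. Of the 5 called, IL10RB, STAT3, MAVS, TRAF3 and TAP1, none passed without a variance trend and IL10RB alone passed when probe sets were averaged. None of the interferon ligands was measured. IFNE, the epithelial interferon of the female reproductive tract, came nearest, with 258 and 283 in SKG-I cells with siIGF2R, against 84.4 and 88.4 in SKG-I cells with siCtrl, and 105 and 102 in BOKU cells with siIGF2R, against 74.2 and 43.5 in BOKU cells with siCtrl. Its siIGF2R arrays were the higher ones in each line, all under 500. IFNA1, IFNA2, IFNB1, IFNK, IFNG, IFNL1 and IFNL2 were at 58 or less on every array. These are mRNA signals, and secreted protein was not measured.

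Of the receptors and kinases, IL10RB, the shared chain of the receptors for interferon lambda and interleukin-10, differed most. It had 4857 and 4847 in SKG-I cells with siIGF2R, against 793 and 805 in SKG-I cells with siCtrl. It had 2109.7 and 1659 in BOKU cells with siIGF2R, against 295 and 330.0 in BOKU cells with siCtrl. The arrays of each group were far apart in both lines, at 6.08-fold higher in SKG-I and 5.99-fold higher in BOKU cells (limma log2 2.59, SE 0.20, adjusted p = 0.022), and its partner IFNLR1 was at 59 or less throughout. IFNAR1, a chain of the type I receptor, was 1.53-fold higher in SKG-I and 1.28-fold higher in BOKU cells (limma adjusted p = 0.215), and JAK1 was 1.70-fold higher in SKG-I and 1.47-fold higher in BOKU cells (limma adjusted p = 0.073). IFNGR1 and IFNGR2, the interferon gamma receptor, differed by at most 1.08-fold in either line.

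Among STAT factors and brakes, STAT3, which transmits interleukin-6 and interleukin-10 family signals and can also be activated by interferon, had 4336 and 4233 in SKG-I cells with siIGF2R, against 2122 and 2272 in SKG-I cells with siCtrl. It had 3893 and 3964 in BOKU cells with siIGF2R, against 1875 and 1909 in BOKU cells with siCtrl. The groups did not overlap, at 1.95-fold higher in SKG-I and 2.08-fold higher in BOKU cells (limma log2 1.01, SE 0.17, adjusted p = 0.042). SOCS3, a feedback inhibitor of that pathway, was 2.58-fold higher in SKG-I and 2.32-fold higher in BOKU cells (limma adjusted p = 0.069). SOCS1, the feedback inhibitor of interferon signalling, was 1.32-fold lower in SKG-I and 1.63-fold lower in BOKU cells (limma adjusted p = 0.416).

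The sensor RIGI, which detects viral RNA and is itself induced by interferon, followed the pattern of the members. It had 1239 and 1176 in SKG-I cells with siIGF2R, against 159 and 117 in SKG-I cells with siCtrl. It had 598 and 615 in BOKU cells with siIGF2R, against 608 and 557 in BOKU cells with siCtrl. The SKG-I groups were 8.85-fold apart while the BOKU arrays overlapped (limma adjusted p = 0.202). The adaptors MAVS and TRAF3, which carry the signal from RNA sensors, passed the test over both lines. MAVS was 2.01-fold higher in SKG-I and 2.58-fold higher in BOKU cells (limma adjusted p = 0.044), and TRAF3 2.26-fold higher in SKG-I and 2.26-fold higher in BOKU cells (limma adjusted p = 0.043). Neither passed when probe sets were averaged (limma adjusted p = 0.080 for MAVS and 0.054 for TRAF3) or without the second BOKU siCtrl array (0.054 for MAVS and 0.052 for TRAF3 in limma). STING1, the adaptor of DNA sensing, was 3.20-fold higher in SKG-I and 1.29-fold higher in BOKU cells, and MYD88, the adaptor of most Toll-like receptors, 2.82-fold higher in SKG-I and 1.23-fold higher in BOKU cells.

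Of 9 cytokines and antigen processing genes that interferon induces, 5 were measured and TAP1 passed the test. TAP1, the peptide transporter of the endoplasmic reticulum, had 1678 and 2029 in SKG-I cells with siIGF2R, against 696 and 661 in SKG-I cells with siCtrl. It had 1105 and 1137 in BOKU cells with siIGF2R, against 597 and 481 in BOKU cells with siCtrl. This was 2.72-fold higher in SKG-I and 2.09-fold higher in BOKU cells (limma log2 1.25, SE 0.22, adjusted p = 0.043). The immunoproteasome subunit PSMB8 was 4.31-fold higher in SKG-I and 1.93-fold higher in BOKU cells (limma adjusted p = 0.055), and NLRC5, the regulator of MHC class I transcription, 3.26-fold higher in SKG-I and 2.0-fold higher in BOKU cells (limma adjusted p = 0.060). The chemokines CXCL10, CXCL11 and CCL5 were at 87 or less on every array, and B2M, the light chain of MHC class I, differed by at most 1.05-fold in either line.

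**Figure D5:**
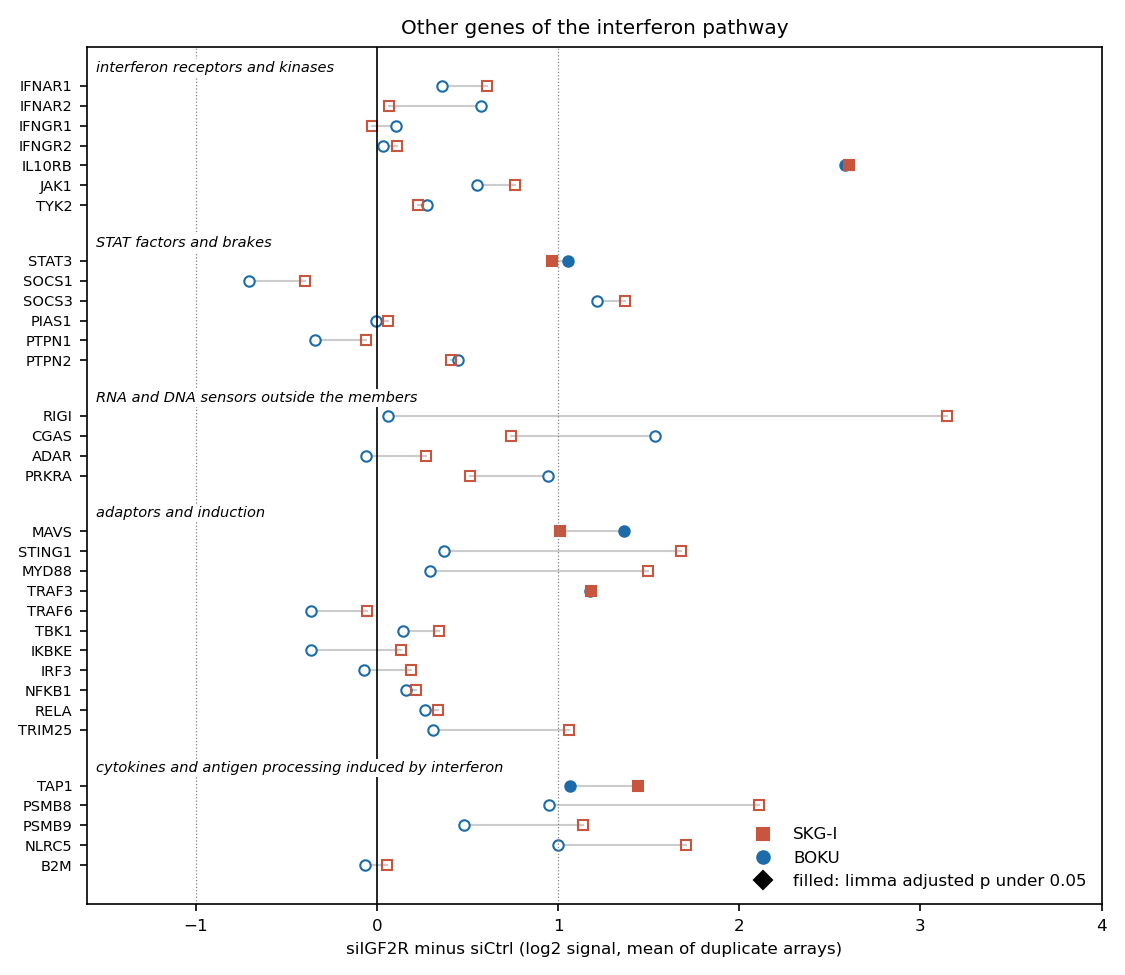
Difference in log2 signal, siIGF2R minus siCtrl, of the 33 measured genes of the interferon pathway outside the members, in SKG-I cells (squares) and BOKU cells (circles), grouped by role, filled where limma gave an adjusted p under 0.05. The 5 genes called, IL10RB, STAT3, MAVS, TRAF3 and TAP1, lie at similar distances to the right in both lines, and RIGI lies far to the right in SKG-I cells only.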

How the data were processed

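A figure legend of the study states that each total RNA was run on duplicate arrays, which makes 4 RNA samples here. The labels only number the arrays of a group. The methods name Affymetrix Human Genome U133 Plus arrays, and the submitters' processing notes name MAS5. The deposited values are linear signal intensities, scaled by the authors to 1 trimmed mean (2% of probe sets left out at each end), which was checked on the table. The arrays limit precision by their number.

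Signals were taken to log2 and duplicates averaged. Of 54675 probe sets, 16517 that reached 500 on 1 array or more were kept and named through the platform annotation of 2016, with symbols updated through RefSeq (8961 genes). limma 3.58.1 in R 4.3.3 compared siIGF2R with siCtrl over both lines, with the line as a block, a variance trend and Benjamini-Hochberg adjustment over 16517 probe sets (threshold 0.05). Within a line only 2-fold counts are given. The members, pathway lists and tests were chosen with earlier results of these data known. Members called by limma, the 10 largest SKG-I and 5 largest BOKU differences and the transcription factors were given array by array, with others by role. The limma step was tested on simulated data. Other filters, scalings, folds, probe set choices and left-out arrays were tried.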

Additional observations from a re-analysis of the deposited data

Results flagged for a closer look

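For 11 of the 32 measured members, every array with siIGF2R lay on one side of the siCtrl arrays in SKG-I cells and on the opposite side in BOKU cells, against 13.3% of all genes. In 9 of them the signal was higher with siIGF2R in SKG-I and lower in BOKU cells, a course taken by 5.57% of all genes. The difference between the lines was not tested, since each line and siRNA is 1 RNA sample. As the SKG-I difference minus the BOKU difference (log2), it was 5.02 for IFIT1, 2.82 for OAS3, 2.29 for IFIT3, 2.01 for SAMD9L, 1.75 for IFIT2, 1.62 for TRIM22, 1.62 for PARP9, 1.25 for IFIH1 and 1.24 for IRF7. It was −1.35 for ISG20 and −1.14 for IFI35, which were lower with siIGF2R in SKG-I and higher in BOKU cells. The BOKU signals of OAS3 were near the array median, between 55.1 and 99.7. Of the 11, OAS3, IFIH1 and ISG20 passed the signal rule only through siIGF2R arrays and IFIT2 only through siCtrl arrays. These members had to differ to some degree to be counted, so they add no support to the count.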

How the results depend on the processing

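The 2 members called higher by limma over both lines became 0 when probe sets of a gene were averaged and 0 without a variance trend (8 at an unadjusted p under 0.05), 1 to 4 when 1 array was left out (4 without the first BOKU siCtrl array, 1 without the second or without the first BOKU siIGF2R array), and 19 when arrays were treated as separate samples, which counts duplicates of 1 RNA as replicates. Adding the array number as a replicate block to that fit gave 12. Of all 8961 genes, 4534 were called with arrays as separate samples and 3763 with the block, in either direction. Without a variance trend 0 of all genes were called, so the 0 members there say nothing of the members. The gaps between the first and second array with siIGF2R correlated with those with siCtrl at 0.126 in BOKU and 0.063 in SKG-I cells. This was taken over the probe sets kept, so the array numbers were not taken to pair the arrays. The 23 members 2-fold or more higher in SKG-I cells ranged over 16 to 29, and 22 to 25 without 1 array. Those 2-fold or more higher in BOKU cells (3) were 5 without the signal filter, 1 with 64 added, 6 at 1.5-fold and 1 at 3-fold, and those lower (3) were 5 without the filter, 5 at 1.5-fold and 1 at 3-fold. Members lower in SKG-I cells (0) were 1 after quantile and 1 after median scaling and 2 at 1.5-fold. With siCtrl, members lower in BOKU than SKG-I cells (5) were 3 with 64 added, 3 with unique probe sets and 3 at 3-fold. Members with a lower response in SKG-I than BOKU cells (2) were 1 with unique probe sets and 0 at 3-fold. No difference changed sign past its threshold. The methods' t-test with the 2-fold rule, over arrays, takes duplicates of 1 RNA as replicates. Its p-values measure the spread of arrays only, so its counts within a line are not given. The 5 pathway genes called all lost the call without a trend (limma adjusted p 0.102 to 0.119). With averaged probe sets STAT3 (0.056), MAVS (0.080), TRAF3 (0.054) and TAP1 (0.054) lost it, without the second BOKU siCtrl array MAVS (0.054), TRAF3 (0.052) and TAP1 (0.063), without the first BOKU siIGF2R array TRAF3 (0.051), and without the second SKG-I siIGF2R array MAVS (0.053). The cause of these shifts was not tested.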
